A study of Arabidopsis thaliana with 102 samples.

Results

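The SEC61 translocon and SEC62 of Arabidopsis thaliana are encoded by 10 genes of the 34133 listed in the expression table: 3 for the α subunit (AT1G29310, AT2G34250 and AT1G78720), 3 for the β subunit (AT2G45070, AT3G60540 and AT5G60460), 3 for the γ subunit (AT4G24920, AT5G50460 and AT3G48570) and SEC62 (AT3G20920). The members were chosen by gene identity and not by an expression threshold, though with earlier results of these data known. RNA-seq was done on whole 5-day-old seedlings of bzip28-2 and bzip60-2, which are labelled knockouts in the Col-0 background, and of Col-0. Seedlings of each genotype were kept for 6 h in liquid medium with 500 ng/mL tunicamycin (Tm), an inhibitor of N-glycosylation that causes endoplasmic reticulum (ER) stress, or with its solvent DMSO, then moved to plates without Tm and collected after 0, 12 or 24 h, as 3 replicates per group, each a pool of 12 seedlings (18 groups, 54 libraries). ChIP-seq of green fluorescent protein (GFP) fusions covered the same time-points: GFP-bZIP28 was driven by the constitutive 35S promoter in Col-0, which still has its own bZIP28, and GFP-bZIP60 by the bZIP60 promoter in a bzip60 knockout. Expression is given as FPKM, a fragment count corrected for transcript length and for the number of fragments mapped in the library, so levels can be compared between genes.

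The SEC61 complex is the channel through which secretory and membrane proteins enter the ER. The α subunit forms the pore, while the small β and γ subunits each span the membrane once. SEC62 is known from yeast and mammals as a partner of SEC63 in the import of completed chains, and in mammals also as a receptor for the turnover of ER by autophagy. When unfolded proteins accumulate, the membrane-bound factor bZIP28 is released by proteolysis and the bZIP60 mRNA is spliced by IRE1. Both then act as transcription factors of the unfolded protein response (UPR) and are known to bind ER stress response elements such as ERSE-I, which reads CCAAT, then 10 bases of any kind, then CACG.

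A few facts of the whole series bear on the values. BIP3, an ER chaperone gene and a marker of the UPR, lay between 27.3 and 746 FPKM in all 27 Tm libraries and between 0.0838 and 2.76 FPKM in all 27 DMSO libraries. The lowest Tm value belonged to replicate 2 of bzip28-2 at 24 h, where the other 2 replicates had 102 and 140 FPKM. The mutated genes did not read as absent: in DMSO at 0 h bZIP28 averaged 24.7 ± 1.54 FPKM in bzip28-2 and 11.1 ± 1.20 FPKM in Col-0, and in Tm at 0 h bZIP60 averaged 110 ± 12.8 FPKM in bzip60-2 and 210 ± 5.39 FPKM in Col-0 (SD, n = 3 each). FPKM over a whole gene does not show whether an interrupted transcript is intact, so these values check no genotype, and genotypes are given as labelled. The root markers COBL9, EXPA7, CASP1 and SCR summed to between 26.0 and 62.1 FPKM in Tm libraries and to between 44.0 and 96.9 FPKM in DMSO libraries. Means of COBL9, EXPA7 and CASP1 were lower in Tm than in DMSO seedlings of every genotype and time-point. SCR at 24 h averaged 16.6 FPKM in Tm and 14.7 FPKM in DMSO seedlings of bzip28-2, and 15.1 and 15.2 FPKM in Col-0. In all other groups its mean was lower in Tm seedlings. The part of these markers in the results was not tested. The shoot markers RBCS1A, CAB1 and LHCB2.1 summed to between 4908 and 23616 FPKM in Tm libraries and to between 16352 and 36669 FPKM in DMSO libraries, and their part was not tested either. In the bzip28-2 library that was low in BIP3 this shoot sum was 18409 FPKM, against 8832 and 4908 FPKM in the other 2 replicates. In whole seedlings a change in the share of a cell type and a change in RNA per cell cannot be told apart.

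Sequence near the start sites is shown for the 4 members where an ERSE-I, exact or with 1 mismatch, lay inside a bZIP28 or bZIP60 peak. The runs are from the RefSeq TAIR10.1 assembly, whose nuclear chromosomes carry the TAIR10 sequence, and each is written 5′ to 3′ on the strand of its gene, with the bases of the element in capitals. Each element stands in the reverse orientation, as CGTG, 10 bases of any kind and ATTGG. The AT3G60540 run spans chr3:22375937-22376020 (minus strand) upstream of the start site. The AT1G29310 run spans chr1:10252218-10252246 (plus strand), and its element covers the start site. The AT2G34250 run spans chr2:14461971-14462013 (plus strand) upstream of the start site, and the AT2G45070 run spans chr2:18588327-18588355 (minus strand) in the 5′ UTR exon.
AT3G60540: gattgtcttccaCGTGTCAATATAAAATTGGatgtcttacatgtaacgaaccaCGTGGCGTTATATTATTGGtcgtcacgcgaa
AT1G29310: tgccaCGTGTATCCGTATTATTGGttcga
AT2G34250: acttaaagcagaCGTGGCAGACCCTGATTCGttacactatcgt
AT2G45070: gctgaGGTGGCATTTTTTAATTGGctaat
The AT3G60540 run holds 2 exact copies, which begin 92 and 51 bases before the start site, and the AT1G29310 run holds 1. The AT2G34250 and AT2G45070 runs each differ from the element at 1 base.

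The genes fell into a wide range of basal levels. In Col-0 DMSO seedlings at 12 h, AT2G45070 (β) was the most abundant at 289 ± 35.6 FPKM, followed by AT4G24920 (γ) at 196 ± 7.04 FPKM, AT5G50460 (γ) at 194 ± 17.9 FPKM and AT2G34250 (α) at 170 ± 3.85 FPKM (SD, n = 3 each). The replicates of AT4G24920 and AT5G50460 overlapped. Lower levels were seen for AT3G48570 (γ) at 45.8 ± 3.57 FPKM, SEC62 at 29.9 ± 0.70 FPKM, AT1G29310 (α) at 29.9 ± 2.74 FPKM, AT5G60460 (β) at 13.9 ± 3.54 FPKM and AT3G60540 (β) at 5.65 ± 0.58 FPKM, and of these neighbours only SEC62 and AT1G29310 overlapped. Each subunit therefore had at least 1 gene at 170 FPKM or more and at least 1 lower paralog in these seedlings. The third α gene, AT1G78720, was listed at 0 in 8 of 54 libraries and reached at most 0.457 FPKM, so it never passed the FPKM of 1 that a gene needed in some library and was not tested. The other 9 members entered every test, among 21864 genes in all.

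**Figure D1:**
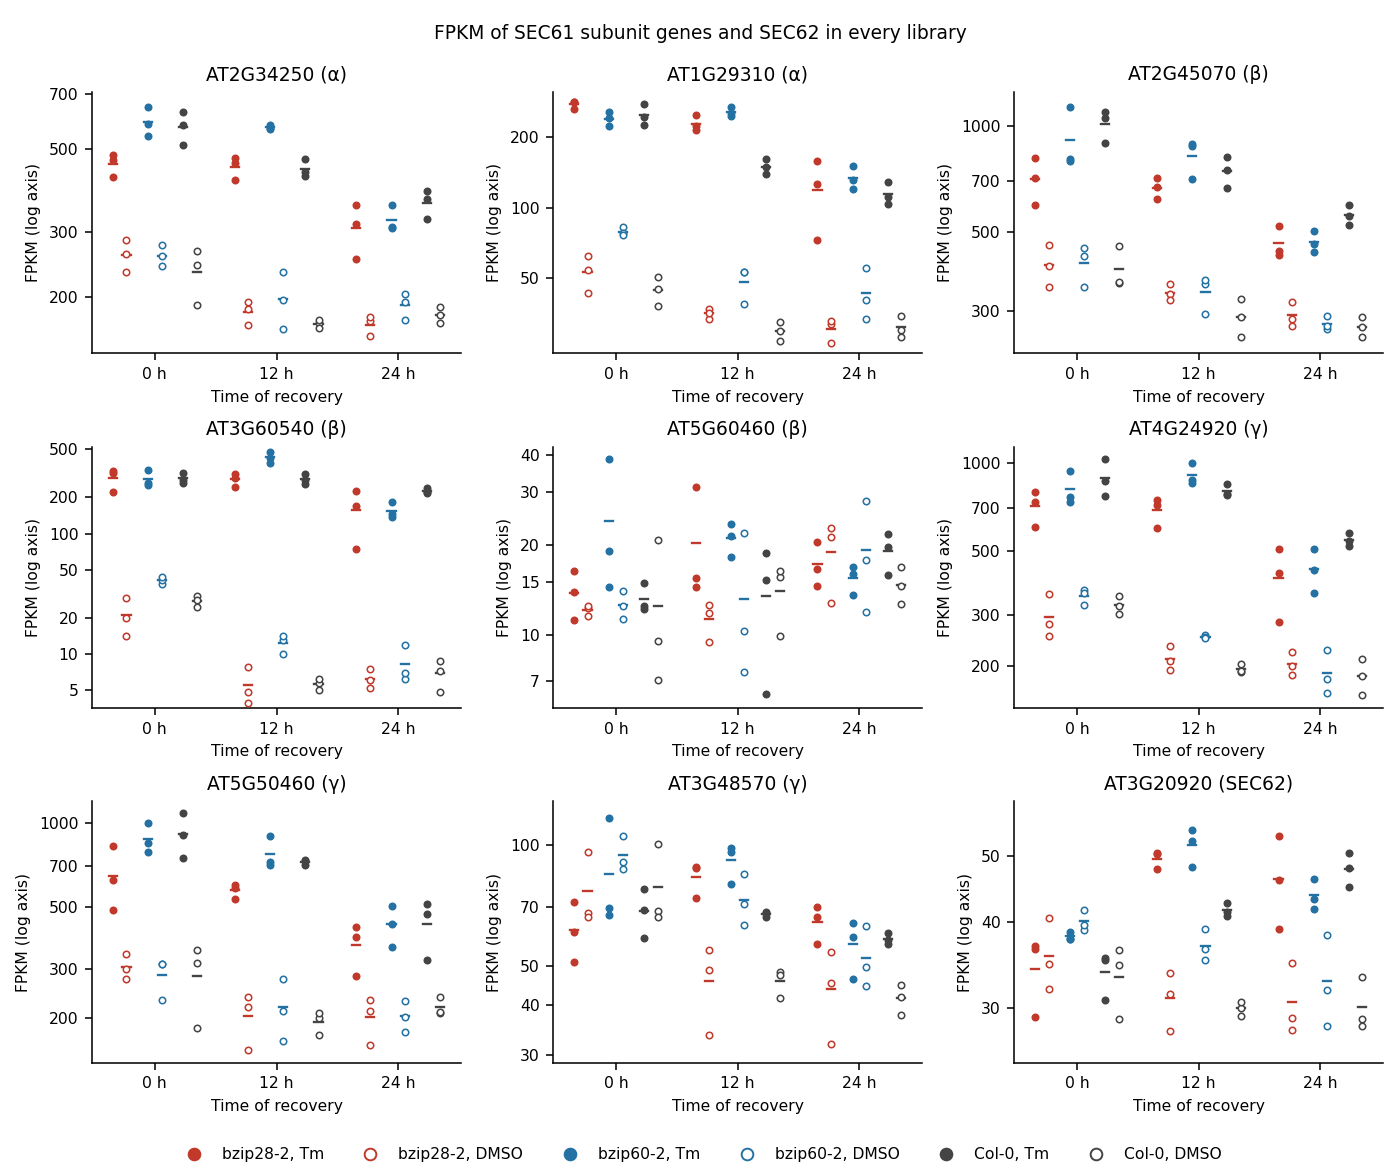
FPKM of the 9 tested members (log axes) in all 54 libraries by time of recovery, with Tm as filled and DMSO as open points and group means as short lines. For the first 4 genes and for AT4G24920 and AT5G50460 all Tm points lie above all DMSO points of the same genotype and time, whereas AT5G60460 overlaps in most groups.

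Expression in Tm seedlings was first compared with DMSO seedlings of the same genotype and time-point, to see how the translocon genes responded at the end of stress and in recovery. At 0 h the same number of members, 6 of 9, was higher in Tm seedlings of bzip28-2, bzip60-2 and Col-0 at an adjusted p under 0.05 (limma), while 5.25%, 1.33% and 1.59% of all tested genes were. At 12 h, 8 of 9 were higher in bzip28-2, 7 in bzip60-2 and 8 in Col-0, against 28.3%, 25.5% and 30.5% of all genes. At 24 h the counts were 7, 7 and 8, against 19.7%, 22.9% and 25.1% of all genes. No member was lower in any of these 9 comparisons, in which 4.44%, 2.36% and 2.03% of all genes were lower at 0 h, 20.1%, 19.1% and 14% at 12 h and 11.3%, 11% and 16% at 24 h in bzip28-2, bzip60-2 and Col-0 (limma). In 54 of 54 comparisons of AT1G29310, AT2G34250, AT2G45070, AT3G60540, AT4G24920 and AT5G50460, every Tm library lay above every DMSO library. These are the members with a bZIP28 or bZIP60 ChIP-seq peak. The same held in 2 of 9 comparisons of AT5G60460, 4 of 9 of AT3G48570 and 6 of 9 of SEC62. The share of all tested genes with such a separation was not counted. In Col-0 the median log2 fold change of the 9 members was 1.36, 1.37 and 0.99 at 0, 12 and 24 h, beside 0, 0.08 and 0.04 over all tested genes. Counts in bzip28-2 at 0 and 24 h and in Col-0 at 0 h depended on single libraries. Without any 1 library, bzip60-2 kept 4 to 5 calls at 0 h and 6 to 7 at 24 h, and Col-0 kept 8 at 24 h. In bzip28-2 at 0 h, 3 members were called without Tm replicate 3 or without DMSO replicate 3, and 2 without DMSO replicate 2, while in Col-0 at 0 h, 3 were called without Tm replicate 2 or 3. In bzip28-2 at 24 h, leaving out Tm replicate 1 left 1 call, Tm replicate 3 left 4, DMSO replicate 1 left 4 and DMSO replicate 3 left 3, while 7 were called without Tm replicate 2, the library low in BIP3. Of the single members, at 0 h AT2G45070 and AT5G50460 in bzip28-2, AT2G45070 in bzip60-2 and AT5G50460 in Col-0 lost the call when no filter on low values was set, with adjusted p-values of 0.0635, 0.0689, 0.0679 and 0.0795 (limma).

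**Figure D2:**
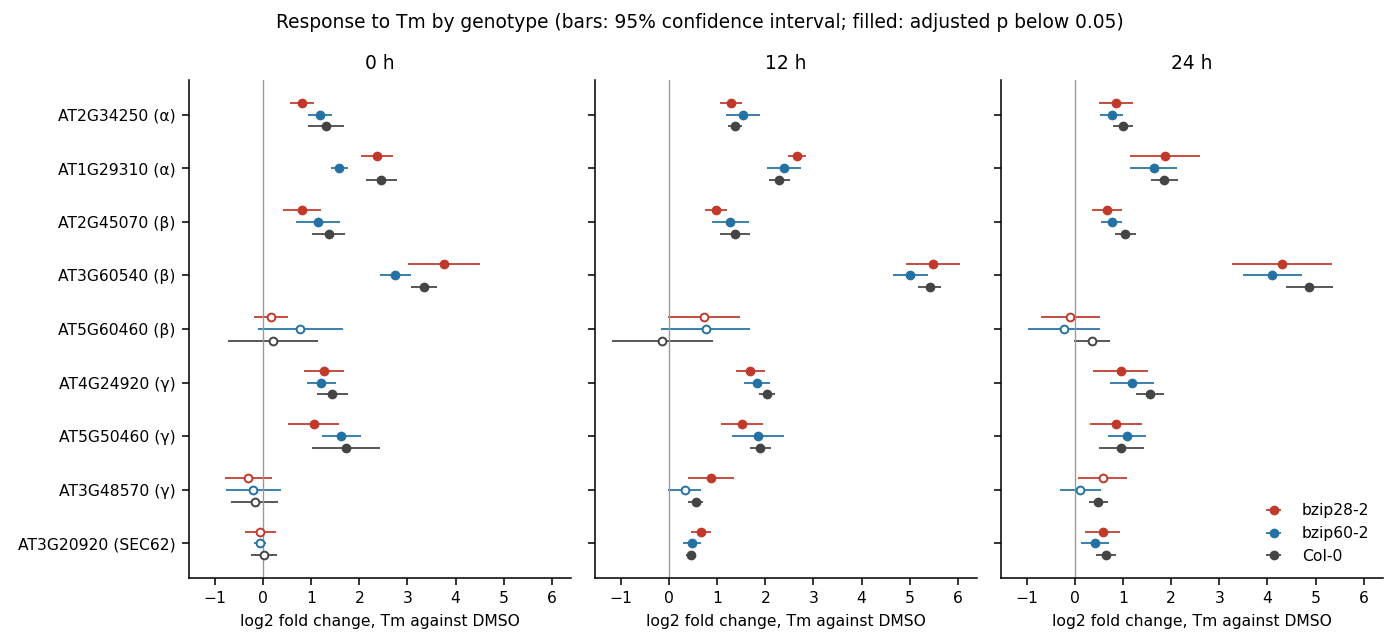
Log2 fold change of Tm against DMSO (horizontal axis) for the 9 tested members at 0, 12 and 24 h in each genotype, with 95% confidence intervals and filled points for an adjusted p below 0.05 (limma). AT3G60540 stands farthest to the right in every panel, and SEC62 and AT3G48570 lie near 0 at 0 h.

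Of the pore-forming α genes, AT1G29310 showed the larger response. In Col-0 at 12 h it had 140, 148 and 161 FPKM in Tm seedlings and 27.1, 29.9 and 32.6 FPKM in DMSO seedlings, a log2 fold change of 2.29 (SE 0.09, adjusted p = 4.35e-05, limma). The Tm and DMSO libraries were far apart. At 0 h the change was 2.37 in bzip28-2, 1.58 in bzip60-2 and 2.45 in Col-0, and at 24 h it was 1.87, 1.63 and 1.85, each with an adjusted p under 0.01 (limma). AT2G34250, the more abundant α gene, had 423, 432 and 470 FPKM in Tm seedlings and 171, 166 and 174 FPKM in DMSO seedlings of Col-0 at 12 h, a log2 fold change of 1.37 (SE 0.06, adjusted p = 6.68e-05, limma). Its response over all groups ranged between 0.76 in bzip60-2 at 24 h and 1.54 in bzip60-2 at 12 h. These α genes share only 5 identical stretches of 50 bases, 0.25% of those of AT1G29310 and 0.21% of those of AT2G34250. Shorter or imperfect matches were not counted, and exchange of reads between the genes was not tested.

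The β gene AT3G60540 gave the largest change of all members. In Col-0 at 12 h it had 279, 259 and 310 FPKM in Tm seedlings and 5.72, 6.19 and 5.03 FPKM in DMSO seedlings, a log2 fold change of 5.41 (SE 0.10, adjusted p = 1.52e-05, limma). It thus moved past AT1G29310, SEC62, AT3G48570 and AT5G60460 in the order of mean levels. In bzip60-2 at 12 h it had 387, 421 and 479 FPKM in Tm seedlings, the highest of any group for this gene, and between 9.99 and 14 FPKM in DMSO seedlings. At 0 h its log2 fold change was 3.76 in bzip28-2, 2.74 in bzip60-2 and 3.34 in Col-0. At 24 h it was 4.31, 4.10 and 4.87. In bzip28-2 at 24 h the Tm libraries spread widely, with 169, 74.3 and 226 FPKM, and without replicate 2 the change was 4.77. AT2G45070, the most abundant β gene, had 749, 666 and 817 FPKM in Tm seedlings and 290, 253 and 325 FPKM in DMSO seedlings of Col-0 at 12 h, a log2 fold change of 1.36 (SE 0.13, adjusted p = 0.000673, limma). AT5G60460, the third β gene, was not called in any of the 9 comparisons. In Col-0 at 12 h it had 18.8, 6.30 and 15.3 FPKM in Tm seedlings and 15.6, 9.86 and 16.3 FPKM in DMSO seedlings, and its log2 fold changes over the 9 comparisons lay between -0.22 and 0.77.

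Of the γ genes, AT4G24920 and AT5G50460 were called higher in Tm seedlings in all 9 comparisons. In Col-0 at 12 h AT4G24920 had 780, 778 and 848 FPKM in Tm seedlings and 191, 192 and 204 FPKM in DMSO seedlings, a log2 fold change of 2.03 (SE 0.07, adjusted p = 3.1e-05, limma). AT5G50460 had 705, 733 and 730 FPKM in Tm seedlings and 199, 174 and 208 FPKM in DMSO seedlings, a log2 fold change of 1.90 (SE 0.08, adjusted p = 6.57e-05, limma). At 24 h in Col-0 the log2 fold change was 1.55 for AT4G24920 and 0.96 for AT5G50460, and the difference between the genes was not tested. AT4G24920 overlaps its neighbour AT4G24910 by 43 bases on the same strand, which is a small part of its longest transcript of 857 bases. The third γ gene, AT3G48570, behaved otherwise. At 0 h in Col-0 it had 58.8, 77.9 and 69.1 FPKM in Tm seedlings and 68.5, 66.1 and 101 FPKM in DMSO seedlings, which overlap (log2 fold change -0.17, SE 0.20, adjusted p = 0.700, limma). At 12 h in Col-0 it was higher in Tm seedlings, with 67.6, 68.3 and 66.0 FPKM, against 48.2, 41.7 and 47.5 FPKM in DMSO seedlings, a log2 fold change of 0.55 (SE 0.07, adjusted p = 0.00166, limma). It was also called in bzip28-2 at 12 h (0.87) and in Col-0 at 24 h (0.49), and not in bzip28-2 at 24 h (0.57, 95% interval 0.06 to 1.09, adjusted p = 0.0850, limma) nor in bzip60-2 at 12 h (0.33, 95% interval -0.02 to 0.67) or 24 h (0.11, -0.32 to 0.54), where the value was -0.02 after scaling to a common median ratio.

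SEC62 had no called difference at 0 h in any genotype and was higher in Tm seedlings of each genotype at 12 h and of Col-0 at 24 h, while its calls in the mutants at 24 h depended on the processing. In Col-0 at 0 h it had 30.8, 35.5 and 35.2 FPKM in Tm seedlings and 28.9, 34.6 and 36.4 FPKM in DMSO seedlings (log2 fold change 0.03, SE 0.11, adjusted p = 0.937, limma). In Col-0 at 12 h it had 40.8, 41.3 and 42.7 FPKM in Tm seedlings and 29.2, 30.03 and 30.6 FPKM in DMSO seedlings, a log2 fold change of 0.46 (SE 0.04, adjusted p = 0.000599, limma). In Col-0 at 24 h it had 50.4, 44.9 and 47.9 FPKM in Tm seedlings and 28.2, 33.2 and 28.9 FPKM in DMSO seedlings, a log2 fold change of 0.65 (SE 0.08, adjusted p = 0.00244, limma). Groups that overlapped at 0 h thus stood apart at both recovery time-points. Scaling FPKM to a common median ratio put the median of all genes in Col-0 at 12 h at -0.05 instead of 0.08, and SEC62 then differed by 0.28 and AT3G48570 by 0.36, both still higher. At 24 h the log2 fold change of SEC62 was 0.58 in bzip28-2 (adjusted p = 0.0350) and 0.41 in bzip60-2 (adjusted p = 0.0466, limma). The call in bzip28-2 was lost with scaling (adjusted p = 0.0529) and with no filter on low values (adjusted p = 0.0549), and that in bzip60-2 with no filter (adjusted p = 0.0703) and without a trend (adjusted p = 0.0506, limma).

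Whether the response changed during recovery was tested with 1 log2 fold change per replicate number, as 12 h minus 0 h and 24 h minus 0 h within a genotype. A larger response at 12 h than at 0 h was called for 3 of 9 members in bzip28-2, 4 in bzip60-2 and 3 in Col-0 (limma), against 18.8%, 15.5% and 18.4% of all tested genes. No smaller response was called, against 12.8%, 7.02% and 6.61% of genes. Over all 6 time comparisons 22 of 54 member tests had an unadjusted p under 0.05. The share of all genes at that unadjusted threshold was not counted, here or for the counts below. SEC62 was called in each genotype, with differences of 0.73 in bzip28-2 (adjusted p = 0.0145), 0.54 in bzip60-2 (adjusted p = 0.0195) and 0.44 in Col-0 (adjusted p = 0.0117, limma). AT3G60540 was called in bzip60-2 at 2.27 (SE 0.31) and in Col-0 at 2.07 (SE 0.38). The Tm levels of AT3G60540 in Col-0 were close at both time-points, 288 ± 29.6 FPKM at 0 h and 283 ± 26.0 FPKM at 12 h, while its DMSO level was 27.5 ± 2.85 FPKM at 0 h and 5.65 ± 0.58 FPKM at 12 h (SD, n = 3 each). AT4G24920 was called in bzip60-2 at 0.63 and in Col-0 at 0.59. In Col-0 its DMSO level was likewise 325 ± 22.4 FPKM at 0 h and 196 ± 7.04 FPKM at 12 h. Its Tm level there was 890 ± 134 FPKM at 0 h and 802 ± 39.7 FPKM at 12 h (SD, n = 3 each). The remaining calls were AT1G29310 in bzip60-2 at 0.81, and AT2G34250 at 0.48 and AT3G48570 at 1.18 in bzip28-2. The 4 calls in bzip60-2 became 2 without 12 h replicate 2, and 1 without 12 h replicate 3 or 0 h replicate 1 or 3. Between 24 and 0 h, 2 members were called, both in Col-0: SEC62 at 0.62 (adjusted p = 0.0172) and AT3G60540 at 1.53 (adjusted p = 0.04997, limma), against 17.6% of genes with a larger and 10.7% with a smaller response. Neither was called without 24 h replicate 1 or 3 or 0 h replicate 3, and 1 was without 0 h replicate 1. In the mutants 0 members were called between 24 and 0 h, against 5.88% of genes in bzip28-2 and 9.82% in bzip60-2 with a larger response and 2.95% and 1.45% with a smaller one, and at an unadjusted p under 0.05 there were 2 members in bzip28-2 and 3 in bzip60-2. These counts of 0 depended on the processing. In bzip60-2, 2 members, AT3G60540 and SEC62, were called when Tm and DMSO libraries were not paired by replicate number, and 1 member with scaling or without a trend. In bzip28-2, 2 members were called without 24 h replicate 2, the replicate number of the Tm library low in BIP3. In Col-0, 4 members were called without that pairing, among them AT1G29310 with a smaller response at 24 h than at 0 h, by -0.60.

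The dependence on bZIP28 and bZIP60 was asked by comparing the response to Tm between genotypes. In none of the 9 comparisons was the response of a member called different at an adjusted p under 0.05 (limma), while few of all genes were. For bzip28-2 minus Col-0, 0.00457% of genes were higher and 0% lower at 0 h, 0.81% higher and 1.21% lower at 12 h, and 0% either way at 24 h. For bzip60-2 minus Col-0, 0% were higher and 0.00457% lower at 0 h, 0.988% higher and 1.62% lower at 12 h, and 0.00457% higher and 0% lower at 24 h. For bzip60-2 minus bzip28-2, 0.00457% were higher and 0.0823% lower at 0 h, 0.0183% higher and 0.0366% lower at 12 h, and 0.00457% higher and 0% lower at 24 h. Of the 81 member tests, 14 had an unadjusted p under 0.05, for which the share of all genes was not counted. At an unadjusted p under 0.01, the threshold of the study, there were 6, and all 6 were lower. By that threshold, higher responses were seen at 0, 12 and 24 h for 0.746%, 3.42% and 2.05% of genes in bzip28-2 minus Col-0, for 0.252%, 2.92% and 2.59% in bzip60-2 minus Col-0 and for 0.54%, 0.681% and 1.13% in bzip60-2 minus bzip28-2. Lower responses at 24 h were seen for 2.71%, 1.98% and 0.558%, and at 12 h for 5.58% in bzip60-2 minus Col-0. The differences from Col-0 share the Col-0 libraries. At 0 h, AT2G34250 responded less in bzip28-2 than in Col-0 by 0.49 (95% interval -0.81 to -0.17, adjusted p = 0.626, limma), while 0.649% of genes were lower at an unadjusted p under 0.01. It had 482, 421 and 465 FPKM in Tm seedlings of bzip28-2, against 511, 629 and 579 FPKM in Tm seedlings of Col-0. AT2G45070 differed in the same direction at 12 h, by -0.39 (95% interval -0.55 to -0.22, adjusted p = 0.0534, limma), where 5.55% of genes were lower at an unadjusted p under 0.01. Its adjusted p was 0.0311 with no filter on low values, the only setting tried that gave a call, and 0.211 when Tm and DMSO libraries were not paired by number. In bzip28-2 at 12 h it had 670, 714 and 620 FPKM in Tm seedlings and 336, 358 and 322 FPKM in DMSO seedlings.

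In bzip60-2 at 0 h, AT1G29310 responded less than in Col-0 by 0.87 (95% interval -1.21 to -0.53, adjusted p = 0.594, limma), and 0.842% of genes were lower at an unadjusted p under 0.01. The groups differed in the DMSO libraries, which had 82.6, 78.3 and 76.5 FPKM in bzip60-2 and 38.3, 45.2 and 50.7 FPKM in Col-0 without overlap. The Tm libraries had 241, 255 and 222 FPKM in bzip60-2 and 226, 277 and 243 FPKM in Col-0, which overlap. Against bzip28-2 at 0 h, the response of AT1G29310 was lower in bzip60-2 by 0.78 (adjusted p = 0.329, limma). That of AT3G60540 was lower by 1.01 (adjusted p = 0.364, limma), and 1.98% of genes were lower at an unadjusted p under 0.01. For AT3G60540 the DMSO libraries averaged 41.1 ± 2.84 FPKM in bzip60-2 and 21.1 ± 7.76 FPKM in bzip28-2, without overlap. Its Tm libraries averaged 283 ± 45.9 and 291 ± 58.9 FPKM, which overlap. For AT1G29310 the DMSO libraries averaged 79.1 ± 3.13 FPKM in bzip60-2 and 53.2 ± 9.26 FPKM in bzip28-2. Its Tm libraries averaged 239 ± 16.7 and 276 ± 10.8 FPKM, and neither treatment overlapped (SD, n = 3 each). At 12 h the response of AT3G48570 was lower in bzip60-2 than in bzip28-2 by 0.55 (adjusted p = 0.367, limma). In that comparison 1.92% of genes were lower at an unadjusted p under 0.01. Its DMSO libraries had 63.3, 71.5 and 84.9 FPKM in bzip60-2 and 54.8, 48.8 and 33.7 FPKM in bzip28-2, without overlap. The Tm libraries had 80.2, 96.3 and 98.6 FPKM in bzip60-2 and 87.7, 88.4 and 73.7 FPKM in bzip28-2, which overlap. At 24 h no member reached an unadjusted p under 0.05. A p above the threshold does not show an equal response: for AT3G60540 at 24 h the 95% intervals of the difference from Col-0 were -1.98 to 0.86 in bzip28-2 and -1.79 to 0.25 in bzip60-2.

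**Figure D3:**
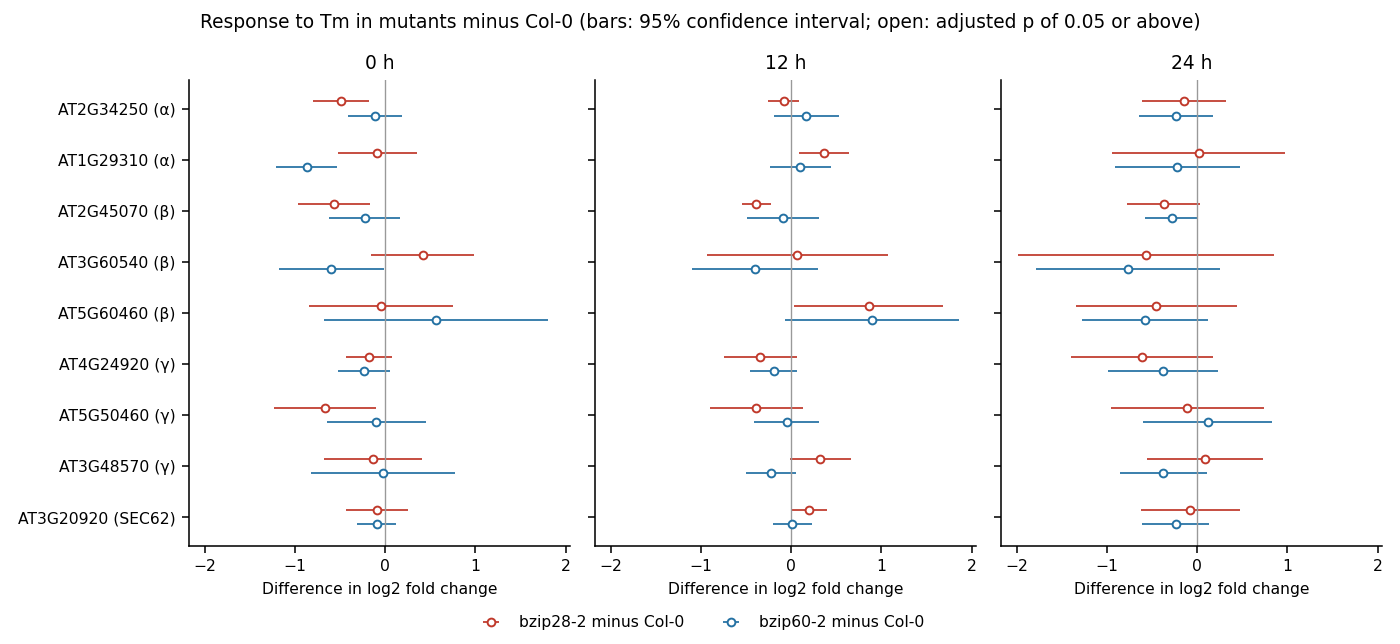
Difference in log2 fold change, bzip28-2 minus Col-0 and bzip60-2 minus Col-0 (horizontal axis), for the 9 tested members at 0, 12 and 24 h, with 95% confidence intervals. All points are open, as no adjusted p was below 0.05 (limma). At 0 h the intervals of AT2G34250, AT2G45070 and AT5G50460 in bzip28-2 lie below 0. Those of AT3G60540 and AT1G29310 (-1.21 to -0.53) in bzip60-2 at 0 h do too. In bzip28-2 at 12 h the interval lies below 0 for AT2G45070 and above 0 for AT1G29310, AT5G60460 and SEC62.

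Levels were also compared between mutant and Col-0 seedlings within a treatment. In Tm seedlings at 12 h, 5 of 9 members were higher in bzip60-2 (21% of all genes, with 13.5% lower) and 2 in bzip28-2 (7.62% of all genes, with 6.28% lower, limma). The 5 calls in bzip60-2 became 1 without Col-0 replicate 1. The 2 in bzip28-2 became 1 without bzip28-2 replicate 1 or 2, and 0 without Col-0 replicate 1 or 2. AT1G29310 was higher in both, with 254, 246 and 267 FPKM in bzip60-2 and 247, 222 and 215 FPKM in bzip28-2, against 140, 148 and 161 FPKM in Col-0. These are log2 differences of 0.77 (adjusted p = 0.00376) in bzip60-2 and 0.60 (adjusted p = 0.0153) in bzip28-2 (limma). SEC62 was higher by 0.31 in bzip60-2 and 0.24 in bzip28-2, and AT2G34250, AT3G48570 and AT3G60540 were higher by 0.37, 0.44 and 0.60 in bzip60-2. Over all tested genes the median difference in this bzip60-2 comparison was 0.11. In DMSO seedlings at 12 h, AT3G60540 and AT4G24920 were higher in bzip60-2 by 1.00 and 0.37 (adjusted p = 0.0399 and 0.0467, limma), where 2.32% of all genes were higher and 0.599% lower, and the median of all genes was 0.15. With FPKM scaled to a common median ratio those differences were 0.83 and 0.18, and neither was called. Neither was called without bzip60-2 replicate 1 or 3 or without any 1 of the Col-0 replicates. In the remaining 9 comparisons 8 member tests had an unadjusted p under 0.05, for which the share of all genes was not counted. In these comparisons 0 members were called at an adjusted p under 0.05 (limma). Of all genes, in Tm seedlings 0.0915% were higher and 0.0823% lower in bzip28-2 at 0 h, 1.36% and 1.19% in bzip60-2 at 0 h, 0.572% and 1.77% in bzip28-2 at 24 h, and 2.42% and 2.92% in bzip60-2 at 24 h. In DMSO seedlings 0.0137% were higher and 0.0137% lower in bzip28-2 at 0 h, 0.357% and 0.242% in bzip60-2 at 0 h, 0.00457% and 0.0183% in bzip28-2 at 12 h, 0.00457% and 0.0183% in bzip28-2 at 24 h, and 0.00457% and 0.032% in bzip60-2 at 24 h.

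Because each subunit has more than 1 expressed gene, the share of 1 gene in the summed FPKM of its subunit was followed. This measure was chosen after the levels had been seen. Among the β genes, AT3G60540 made up 29.2%, 33.7% and 27.2% of the summed FPKM in Tm seedlings of bzip28-2, bzip60-2 and Col-0 at 12 h, against 1.53%, 3.36% and 1.86% in DMSO seedlings. Among the α genes, AT1G29310 made up 33.8%, 30.9% and 25.3% in Tm seedlings, against 16.3%, 19.6% and 14.9% in DMSO seedlings. The share of AT3G48570 among the γ genes went the other way, with 6.25%, 5.18% and 4.23% in Tm seedlings, against 9.88%, 13.4% and 10.5% in DMSO seedlings. Tm and DMSO libraries did not overlap in any of these, nor in any genotype at 0 or 24 h, except for AT3G48570 in bzip28-2 at 24 h (7.89% and 9.66%). A two-sided exact permutation test of 3 against 3 libraries gave p = 0.1 where they did not overlap, the smallest it can give, and p = 0.2 for that exception. In Col-0 at 12 h the summed FPKM was 591 ± 35.4 in Tm seedlings and 200 ± 5.49 in DMSO seedlings for α, 1040 ± 106 and 309 ± 38.3 for β, and 1592 ± 46.9 and 435 ± 25.9 for γ, while SEC62 had 41.6 ± 0.94 and 29.9 ± 0.70 (SD, n = 3 each).

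**Figure D4:**
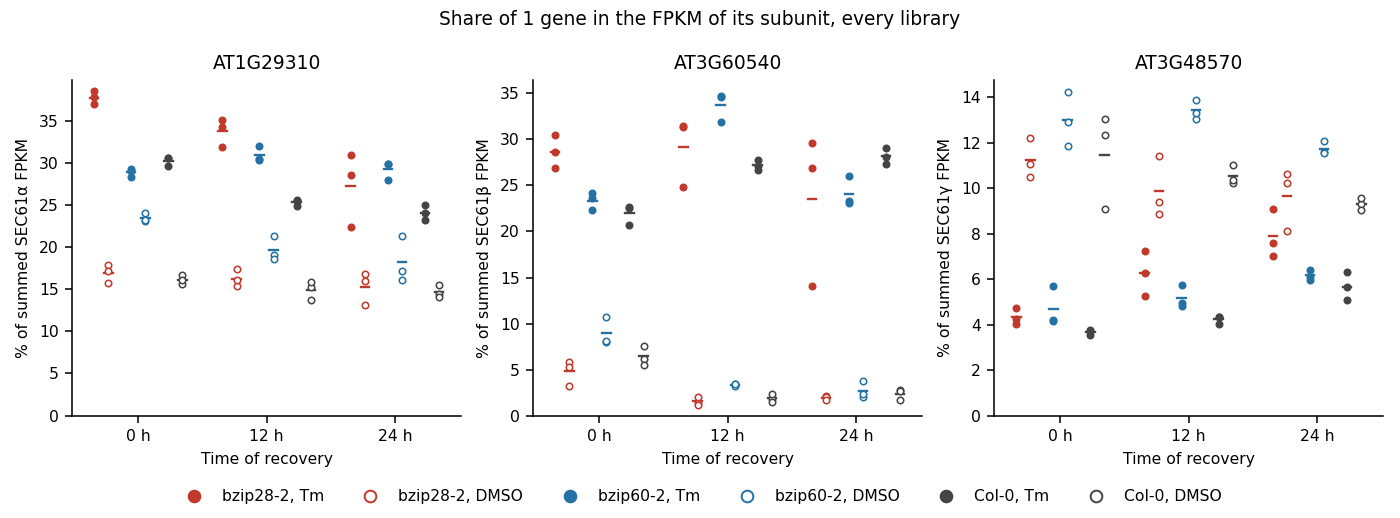
Percent of the summed FPKM of a subunit that came from AT1G29310 (α), AT3G60540 (β) and AT3G48570 (γ), in every library by time of recovery, with Tm as filled and DMSO as open points and group means as short lines. The first 2 shares are higher in Tm libraries and the third is lower, apart from the overlap of AT3G48570 in bzip28-2 at 24 h.

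The deposited peaks were then searched for those whose nearest gene is a member. The authors had removed peaks that overlapped a DMSO peak unless the Tm peak was markedly stronger, so a listed peak may also exist with DMSO, and there is 1 list per protein and time-point without replicates, so no test was made. A peak of either protein was assigned to 6 of 10 members, with bZIP28 at 5 (1.46% of all tested genes over all times) and bZIP60 at 2 (1.34%). These were AT1G29310, AT2G34250, AT2G45070, AT3G60540, AT4G24920 and AT5G50460, and none was assigned to AT1G78720, AT5G60460, AT3G48570 or SEC62. At 0 h bZIP28 peaks lay at 2 members (0.375% of all tested genes have one), AT2G34250 with a score of 3.42 and AT5G50460 with a score of 2.92, where the score is the enrichment that MACS2 gives. These ranked 90 and 114 of 130 peaks, below the median score of the list. At 24 h bZIP28 peaks lay at 5 members (1.35% of genes). AT2G45070 had a score of 8.04 (rank 36 of 454) and AT3G60540 a score of 7.94 (rank 38 of 454), followed by AT5G50460 at 6.19, AT2G34250 at 6.09 and AT4G24920 at 5.25. AT5G50460 had a further peak past its 3′ end with a score of 2.82. At 12 h there was no bZIP28 or bZIP60 peak at a member (0.146% and 0.0595% of genes), and none of bZIP60 at 24 h (0.572% of genes).

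bZIP60 peaks at 0 h lay at AT3G60540, with a score of 4.43 (rank 52 of 250), and at AT1G29310, with a score of 4.17 (rank 65 of 250), while 0.901% of all tested genes have one. AT3G60540 was thus the only member with a peak of both proteins, and 478 bases were shared, 89.3% of the bZIP28 peak at 24 h and 57.7% of the bZIP60 peak. AT1G29310 was the only member with a bZIP60 and no bZIP28 peak. The peaks near start sites were chr1:10252044-10252651 for AT1G29310, chr2:14461799-14462239 for AT2G34250 at 24 h, chr2:18588085-18588569 for AT2G45070, chr3:22375634-22376168 for AT3G60540 with bZIP28, chr4:12820633-12820987 for AT4G24920 and chr5:20552416-20552864 for AT5G50460 at 24 h (TAIR10), each classed by the authors as promoter. Each of them covers the start site in the RefSeq annotation.

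**Figure D5:**
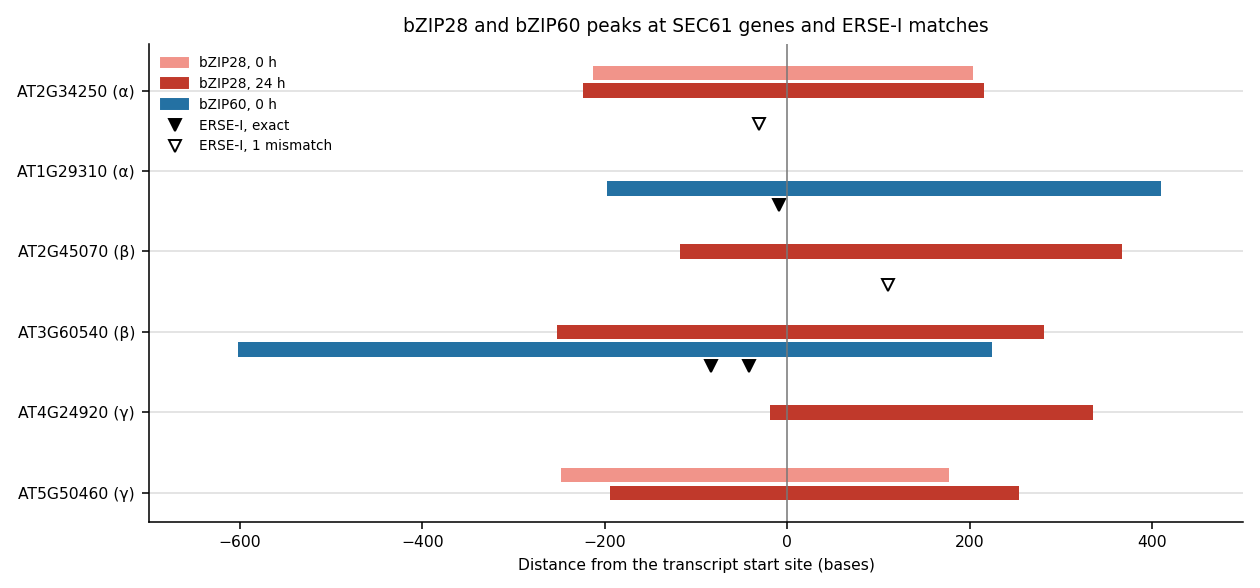
Position of bZIP28 and bZIP60 peaks near 6 SEC61 genes as distance from the transcript start site in bases (negative is upstream), with triangles for ERSE-I matches. The 2 exact matches of AT3G60540 lie inside its bZIP28 and bZIP60 peaks, and the further bZIP28 peak past the 3′ end of AT5G50460 is outside the range drawn.

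The 2 exact ERSE-I copies of AT3G60540 lie inside both of its peaks, and this is the only member with an exact ERSE-I in the 1000 bases before its start site, which 1.56% of 21627 promoters have. The exact copy at AT1G29310 begins 18 bases before the start site, inside the bZIP60 peak. The AT2G34250 copy with 1 mismatch begins 40 bases before the start site, inside the bZIP28 peaks of 0 and 24 h, and 13.4% of promoters hold an ERSE-I with at most 1 mismatch. The AT2G45070 copy with 1 mismatch begins 102 bases after the start site, inside the bZIP28 peak of 24 h. Of all peaks, 10.6% of the bZIP28 peaks at 24 h and 16% of the bZIP60 peaks at 0 h hold an exact ERSE-I. An ERSE-I with at most 1 mismatch is held by 40% of the bZIP28 peaks at 0 h and 24.7% of those at 24 h. In the 1000 bases before the start site no member had an exact ERSE-II (ATTGG, 2 bases of any kind and CACG, 0.361% of promoters), UPRE-I (TGACGTGG or TGACGTGA, 4.74% of promoters) or UPRE-II (0.00925% of promoters), counting both strands. The shorter UPRE-III (TCATCG, 29% of promoters) was found in the 1000 bases before the start site of AT3G60540, AT4G24920 and AT5G50460. In peaks, 1 exact copy lay in the bZIP60 peak of AT1G29310. The bZIP28 peaks near the start site of AT5G50460 at 0 and 24 h each held 1 exact copy too. The peaks of AT4G24920 and AT5G50460 hold no exact ERSE-I, ERSE-II or UPRE-I.

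Peaks and expression were set side by side. The 6 members with a peak at any time-point were the 6 called higher at 0 h in each genotype. Their median log2 fold change at 0 h was 1.16 in bzip28-2, 1.40 in bzip60-2 and 1.58 in Col-0. AT2G45070 and AT4G24920 among them had a peak only at 24 h. How often other genes with a peak were called higher was not counted. The 3 tested members without a peak, AT5G60460, AT3G48570 and SEC62, had medians of -0.06, -0.07 and 0.03 at 0 h, and none was called. At 12 h all 6 members with a peak were called in each genotype, as were 2, 1 and 2 of the 3 without. AT1G29310 and AT3G60540, the members with a bZIP60 peak, were still higher in Tm seedlings of bzip60-2 at 0 h by 1.58 (SE 0.07) and 2.74 (SE 0.13), and the 5 members with a bZIP28 peak were called higher in bzip28-2 at 0, 12 and 24 h. Of these 5, AT2G45070 and AT5G50460 were not called at 0 h with no filter on low values. At 24 h AT5G50460 lost the call with scaling (adjusted p = 0.0566) and with no filter (adjusted p = 0.0578), and AT4G24920 with no filter (adjusted p = 0.0533, limma). With the replicate number as a block, AT2G34250, AT2G45070 and AT5G50460 were not called in bzip28-2 at 0 h (adjusted p = 0.0613, 0.0860 and 0.0803, limma). At 24 h the block removed the calls of AT2G34250, AT2G45070, AT4G24920 and AT5G50460 (adjusted p = 0.0524, 0.0789, 0.0933 and 0.0986, limma). Leaving out Tm replicate 1 of bzip28-2 at 24 h left 1 member called.

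Other genes of ER import were followed as a list of 22 genes that the reference names as subunits of the signal recognition particle (SRP, which brings ribosomes to the ER), its receptor, SEC63-type proteins, signal peptidase and the translocon-associated protein (TRAP) complex. At 0 h, 4 of 22 were higher in Tm seedlings of bzip28-2, 2 in bzip60-2 and 3 in Col-0, and 1 was lower, in bzip60-2 (limma). Of all tested genes 5.25%, 1.33% and 1.59% were higher at 0 h. At 12 h, 19, 16 and 16 of the list were higher, against 28.3%, 25.5% and 30.5% of all genes, and at 24 h 11, 10 and 16, against 19.7%, 22.9% and 25.1%. Their median log2 fold change in Col-0 was 0.08, 0.51 and 0.43 at 0, 12 and 24 h, against 1.36, 1.37 and 0.99 for the 9 translocon members. In Col-0 none of the 9 SRP genes was higher at 0 h, and 7 were at 12 h, where 30.5% of all genes were. The largest changes in Col-0 at 12 h were those of AT4G21180, a SEC63-type DnaJ protein, by 2.12 (SE 0.10), and of the signal peptidase subunit genes AT3G05230 by 1.81 (SE 0.08) and AT5G27430 by 1.53 (SE 0.06), with adjusted p-values of 8.29e-05, 6.4e-05 and 4.35e-05 (limma). These 3 genes were also the ones higher in Col-0 at 0 h, by 1.70, 1.82 and 0.97.

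The genes whose profile was most like that of the most abundant member of each class were sought by Pearson's r of log2(FPKM + 1) over the 54 libraries, as a description only, since the libraries share treatment and time. AT2G34250 (α) was most like AT1G07670, an endomembrane calcium pump (r = 0.984), AT5G47420 (r = 0.977) and the BiP chaperone gene AT5G42020 (r = 0.976). AT2G45070 (β) was most like AT1G27330, which encodes the ribosome associated membrane protein RAMP4 (r = 0.966), AT1G07670 (r = 0.960) and the BiP gene AT5G28540 (r = 0.955). AT4G24920 (γ) was most like AT3G24090, annotated as a glucosamine-fructose-6-phosphate aminotransferase (r = 0.979), AT5G42020 (r = 0.979) and AT5G28540 (r = 0.977). SEC62 was most like the tetraspanin gene AT2G23810 (r = 0.943), AT4G17070, a peptidyl-prolyl isomerase gene (r = 0.938), and AT2G39960 of signal peptidase (r = 0.937).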

How the data were processed

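Per the labels and the methods of the study, RNA-seq reads were mapped to TAIR10 with TopHat2 2.0.14 and the authors deposited FPKM from Cufflinks 1.3.0. ChIP-seq peaks were called by the authors with MACS2 2.1.2, replicates were combined by their reproducibility, peaks that overlapped a DMSO peak were removed unless markedly stronger with Tm, and the deposited score is the enrichment of each peak. FPKM are not counts, so no count model was used, and read depth per RNA-seq library was not used here. The summed FPKM per library lay between 819066 and 918448. Log2(FPKM + 1), with a pseudocount of 1, was tested with limma 3.58.1 (trend, R 4.3.3) for the 21864 genes that passed an FPKM of 1 in any library. Fold changes are on this scale, which understates those of low genes. P-values were adjusted over all tested genes by Benjamini-Hochberg, with calls at 0.05. Differences between genotypes were fitted on 1 log2 fold change per replicate number, after the per-replicate fold changes the study compared between genotypes, but with limma on FPKM over all tested genes. Differences between time-points, which the study did not test this way, were fitted alike. Both pair Tm with DMSO by number, which the data do not bear out, so an unpaired fit was run as an alternative. Replicates were biological, and p-values measure the spread between these pools. Start sites and elements came from RefSeq TAIR10.1, where 97.4% of 762 promoter peaks lay within 1000 bases of the start of their gene. Gene starts in the annotation of the authors may differ. The members, lists and elements were chosen with earlier results of these data known. All members, and by rule the largest pathway changes in Col-0 at 12 h and the 3 most similar genes per class, were named. Tests were checked on simulated data. The alternatives were a pseudocount of 0.1, scaling by the median ratio, other filters (no filter, or a mean FPKM of at least 1), a limma fit with no trend, a joint fit of the 54 libraries, the replicate number as a block, leaving out each library, other peak rules and promoters of 500 bases. For differences between genotypes or time-points, the Tm and DMSO libraries of 1 replicate number were left out together. AT2G18770 and 4 peptidase genes of the pathway list were left out, as the reference does not name them so.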

Additional observations from a re-analysis of the deposited data

Results flagged for a closer look

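For 12 values the response to Tm differed between 2 time-points of 1 genotype by the test of the difference itself (limma, adjusted p under 0.05). As 12 h minus 0 h, the log2 fold change of AT2G34250 differed by 0.48, of AT3G48570 by 1.18 and of SEC62 (AT3G20920) by 0.73 in bzip28-2. In bzip60-2 that of AT1G29310 differed by 0.81, of AT3G60540 by 2.27, of AT4G24920 by 0.63 and of SEC62 by 0.54. In Col-0 that of AT3G60540 differed by 2.07, of AT4G24920 by 0.59 and of SEC62 by 0.44. As 24 h minus 0 h in Col-0, that of AT3G60540 differed by 1.53 and that of SEC62 by 0.62. DMSO levels moved with several of these: AT3G60540 in Col-0 had 30.2, 24.5 and 27.9 FPKM at 0 h, 5.72, 6.19 and 5.03 FPKM at 12 h and 4.83, 8.82 and 7.17 FPKM at 24 h, and their part in the result was not tested.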

How the results depend on the processing

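The directions of the members' changes did not reverse under any alternative run for a called value. The number of members called higher in Tm seedlings at 12 h stayed within 1.5 times its value in each genotype. With the replicate number as a block, 3 members were called in bzip28-2 and 2 in bzip60-2 at 0 h, and 2 in bzip28-2 at 24 h, and in mutant against Col-0 seedlings at 12 h, 0 in Tm for bzip28-2 and 0 in DMSO for bzip60-2. The numbers do not pair the libraries. The deviations of same-numbered Tm and DMSO libraries from their group means correlated only between -0.28 and 0.13. Yet the tests of differences between genotypes and time-points pair Tm with DMSO by number. Without that replicate block, 24 h minus 0 h gave 2 calls in bzip60-2 and 4 in Col-0, and no difference between genotypes was called. With no filter on low values there were 4 calls in bzip28-2 at 24 h, 1 for bzip28-2 minus Col-0 at 12 h, 1 for 24 h minus 0 h in Col-0 and 1 for bzip60-2 against Col-0 in DMSO at 12 h. A mean FPKM of at least 1 gave 1 for that pair at 0 h. Scaling by the median ratio gave 1 call for 24 h minus 0 h in bzip60-2, 1 in Col-0, 1 for bzip28-2 against Col-0 in Tm at 12 h and 0 for bzip60-2 against Col-0 in DMSO at 12 h. Limma without a trend gave 1 for 24 h minus 0 h in bzip60-2, and a pseudocount of 0.1 gave 1 in Col-0. The cause was not tested for these. Leaving out each library in turn, which leaves fewer samples, gave 2 to 5 calls in bzip28-2 and 3 to 6 in Col-0 at 0 h, and 1 to 7 in bzip28-2 at 24 h. It gave 0 to 3 for bzip28-2 and 1 to 5 for bzip60-2 against Col-0 in Tm at 12 h (1 without Col-0 replicate 1), and 0 to 3 for bzip60-2 in DMSO at 12 h. For differences between time-points the Tm and DMSO libraries of 1 replicate number were left out together. There were then 1 to 4 calls for 12 h minus 0 h in bzip60-2. For 24 h minus 0 h there were 0 to 2 in bzip28-2 (2 without replicate 2 of 24 h) and 0 to 2 in Col-0. Among peaks above the median score of their list, 0 members had a bZIP28 peak at 0 h. RNA-seq read depth was not used, and with 3 replicates some intervals of the differences between genotypes are wide.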
